A study of Mus musculus with 8 samples.

Results

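Cytosolic ribosomal protein messages were followed in mouse embryonic stem cells, in total RNA and in RNA recovered with the RNA-binding protein hnRNP L. The genes were those whose symbol was Rpl or Rps plus a number, with an optional closing a, l, x or y, together with Rplp0, Rplp1, Rplp2 and Rpsa. The rule found 82 of the 23560 genes in the deposited tables, of which 50 belong to the large subunit and 32 to the small subunit. These genes were covered by 100 transcript records, and 11 genes had more than 1 record, whose FPKM (fragments per kilobase of transcript, relative to library size) were summed. One of them, Rps4l, is annotated as a transcribed pseudogene.

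A cytosolic ribosome is built from ribosomal RNA and a large set of proteins that are needed in equal numbers. Their messages are short, stable and among the most abundant in dividing cells, and many start with a terminal oligopyrimidine (TOP) tract, a C followed by pyrimidines, through which growth signals control their translation. Some ribosomal proteins, Rpl5 and Rpl11 foremost, bind Mdm2, the ubiquitin ligase that degrades p53, and so connect ribosome assembly to the p53 response.

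The study sequenced 8 libraries, 1 for each combination of genotype (p53+/+ or p53-/-), treatment and fraction, from embryonic stem cells of a C57BL/6X129Sv mix kept in serum with leukemia inhibitory factor for less than 20 passages. Cells were untreated or received 0.5 uM Adriamycin (doxorubicin, a drug that breaks DNA) over 8 hours. The input fraction was total RNA, described as carrying a poly(A) tail, and the RIP fraction was RNA immunoprecipitated with an antibody to hnRNP L, a mostly nuclear protein that acts in splicing and prefers CA-rich RNA. The series allows 3 questions about these messages: how far hnRNP L immunoprecipitates hold them relative to input, whether Adriamycin moves them, and whether loss of p53 moves them. No library made with a control antibody was used here, so a RIP minus input difference is not by itself a measure of hnRNP L binding. Nothing in the labels says whether groups came from separate cultures or whether p53-/- cells are 1 clone, so p-values measure only the spread between these libraries, which may be technical.

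Input libraries held 5.67 to 7.48 gigabases on transcripts and RIP libraries 3.21 to 4.94, estimated as coverage times length. The summed FPKM of 10 pluripotency markers was 8237 and 9573 in p53+/+ input and 7277 and 7905 in p53-/- input, with Pou5f1 at 682 FPKM or more in all 4. The summed FPKM of 18 fibroblast markers was 278 and 327 in p53+/+ input, where 4 of the 18 were listed at 0, and 966 and 1142 in p53-/- input, where none was. Trp53 itself was read in all 8 libraries (236 and 173 FPKM in p53+/+ input, 140 and 121 in p53-/- input), and whole-transcript values cannot check the genotype label. In bulk RNA, fewer cells of a type and less RNA per cell cannot be told apart.

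The ribosomal protein messages were very abundant in input, with large differences among themselves. Their median level in p53+/+ input was 2638 FPKM without and 2738 FPKM with Adriamycin, and in p53-/- input it was 2335 and 2247 FPKM. Together they made up 15.4% to 17.6% of the material on transcripts (FPKM times length) in the 4 inputs. The highest mean input levels belonged to Rplp1, a protein of the acidic stalk (6138 FPKM), to Rpl41, the shortest ribosomal protein (5877 FPKM), and to Rps12 of the small subunit (5655 FPKM). Their ranges over the 4 inputs overlapped one another, with Rplp1 at 5773 to 6962 FPKM, Rpl41 at 5530 to 6522 FPKM and Rps12 at 5151 to 6415 FPKM.

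At the low end stood paralogs and genes that share their locus. Rpl32l was listed at 0 in 7 libraries and at 0.0841 FPKM in the untreated p53-/- RIP, and was the only one of the 82 genes below the limit of a mean of 1 scaled FPKM. Rpl3l, the muscle-enriched counterpart of Rpl3, was just above it, at 1.85 to 2.93 FPKM in input. Rpl10l and Rpl39l, the testis-enriched counterparts of Rpl10 and Rpl39, averaged 70.7 and 90.8 FPKM.

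For 4 genes the level itself is uncertain, because a near copy is annotated over the same locus and held most of the FPKM. In untreated p53+/+ input, Rpl26 had 316 FPKM and the overlapping Gm15772 had 3611 FPKM. The same pattern held in that library for Rpl30 (157 FPKM, Gm12191 2247 FPKM), Rpl34 (29.3 FPKM, Rpl34-ps1 1109 FPKM) and Rps27 (148 FPKM, Rps27rt 4139 FPKM). For Rps15a the only record is 5134 bases long, against a median of 710 bases for all 81 tested genes. Named pseudogenes are listed for 63 of the 82 genes, 319 in all, and how reads shared with such copies were assigned is not given in the sources used here.

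The first comparison set RIP against input within each of the 4 combinations of genotype and treatment. Most ribosomal protein messages were depleted from the immunoprecipitate: 56 of 81 (69.1%) were lower and 15 (18.5%) were higher, while 10 did not pass the test. Over all 11847 genes tested, 37.2% were lower and 38% were higher. Short genes outside the set were lower more often: 51.9% under 500 bases, 62.7% from 500 to under 750 and 67.6% from 750 to under 1000. In those classes 12 of 17, 21 of 29 and 13 of 16 ribosomal protein messages were lower. From 1000 to under 1500 bases 6 of 12 were lower, against 57.1% of other genes. The median difference of the ribosomal protein messages was -1.23 on the log2(scaled FPKM + 1) scale, against 0.02 for all genes tested. Calls are at a Benjamini-Hochberg adjusted p under 0.05 in limma, fitted to 4 RIP and 4 input libraries with that combination as a block after each library was scaled by the median, over genes, of its ratio to the geometric mean of all 8.

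Of the 56 lower messages, 53 had no overlap between the 4 RIP and the 4 input values after scaling, and of the 15 higher messages, 14 had none. Over all genes tested, 21.1% were called lower and 22.3% higher without overlap. A drop of 1 or more was seen for 46 messages (13.5% of all genes) and a drop of 2 or more for 18 (1.09% of all genes), whereas 5 were higher by 1 or more (16.6% of all genes). As a share of the material on transcripts, the whole set went from 15.4% to 17.6% in input to 8.95% to 11.8% in RIP. The shift was larger in the small subunit, with 25 of 32 lower, 4 higher and a median difference of -1.71, than in the large subunit, with 31 of 49 lower, 11 higher and a median difference of -0.79, and this difference between subunits was not tested.

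**Figure D1:**
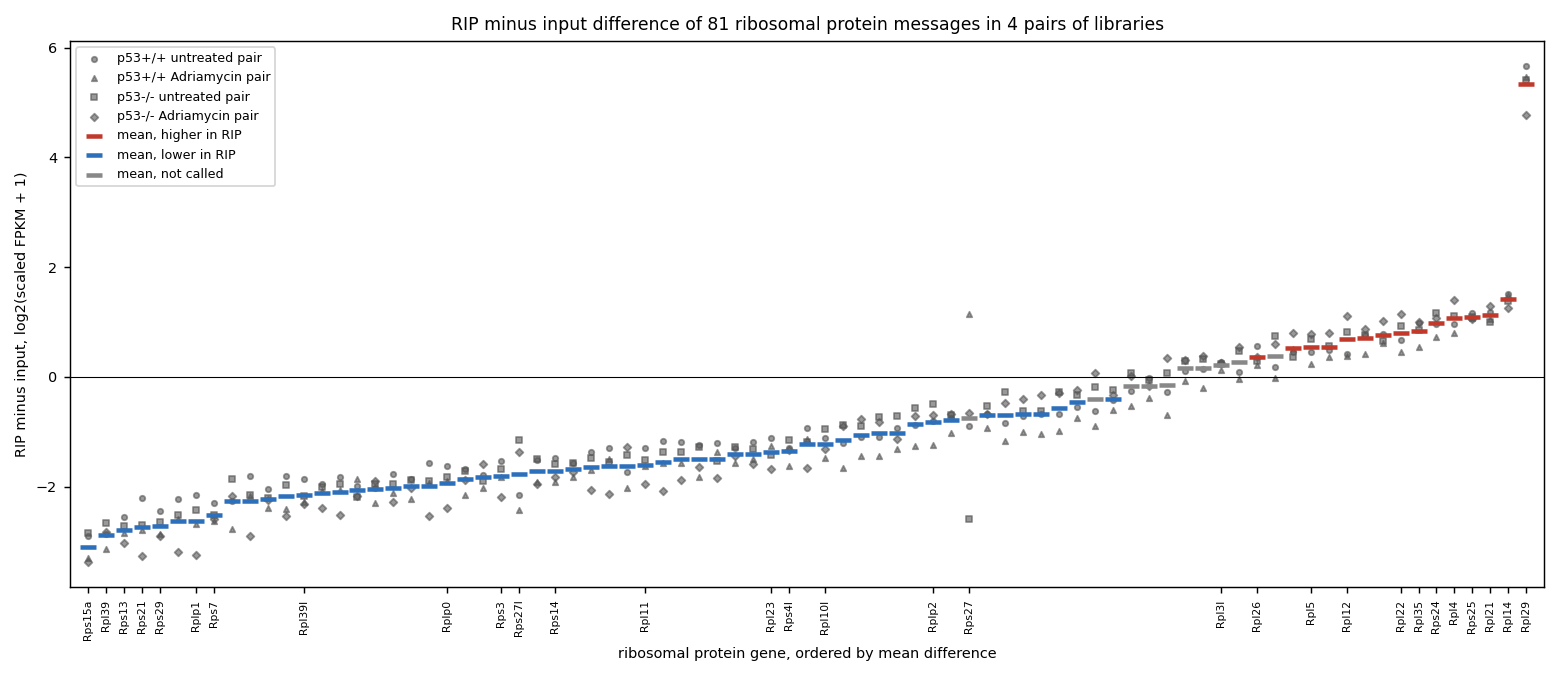
The RIP minus input difference on the log2(scaled FPKM + 1) scale (y axis) is plotted for the 81 tested ribosomal protein genes in order of their mean (x axis, with some genes named). Grey points are the 4 pairs of libraries and bars are the means, coloured by call. Rpl29 stands alone at 5.33, Rps15a is lowest at -3.11, and the 4 pairs of Rps27 are scattered more widely than those of its neighbours.

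Rpl29, a protein of the large subunit encoded on chromosome 9 (mm9, 106331870 to 106333898), was the exception by a wide margin. Its deposited level was 228, 232, 222 and 220 FPKM in the untreated p53+/+, Adriamycin p53+/+, untreated p53-/- and Adriamycin p53-/- inputs, and 5215, 3791, 6405 and 4109 FPKM in the RIP libraries in the same order. Every RIP value lay far above every input value, and the 4 inputs were nearly equal. The authors' bounds for single libraries did not reach across, with an upper bound of at most 239 FPKM in input and a lower bound of at least 3764 FPKM in RIP.

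In scaled values the difference for Rpl29 was 5.33 ± 0.16, a 40.2-fold rise, with an adjusted p of 8.75e-06 in limma. Rpl29 was singled out as enriched with earlier results of these same libraries known. Its p-value and rank therefore describe its size here and are no independent support. As for every ± here, the SE is that of limma over 4 pairs, which also draws on the spread of other genes. The deposited levels above give a smaller fold than the scaled levels in every pair. The scaled difference was 5.67 and 5.47 in the untreated and Adriamycin p53+/+ pairs, and 5.40 and 4.78 in the p53-/- pairs. Only 7 of the 11847 genes tested were further up, and the next ribosomal protein message stood 3.92 lower. Among the 82 messages Rpl29 ranked between 73 and 75 in the inputs, counted from the highest level, and 1, 1, 2 and 5 in the RIP libraries. Its share of all material went from 0.0174% to 0.0188% in input to 0.455% to 0.757% in RIP. No other deposited record overlaps Rpl29, which has 1 record and 3 named pseudogenes; the part of those copies in its values was not tested.

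**Figure D2:**
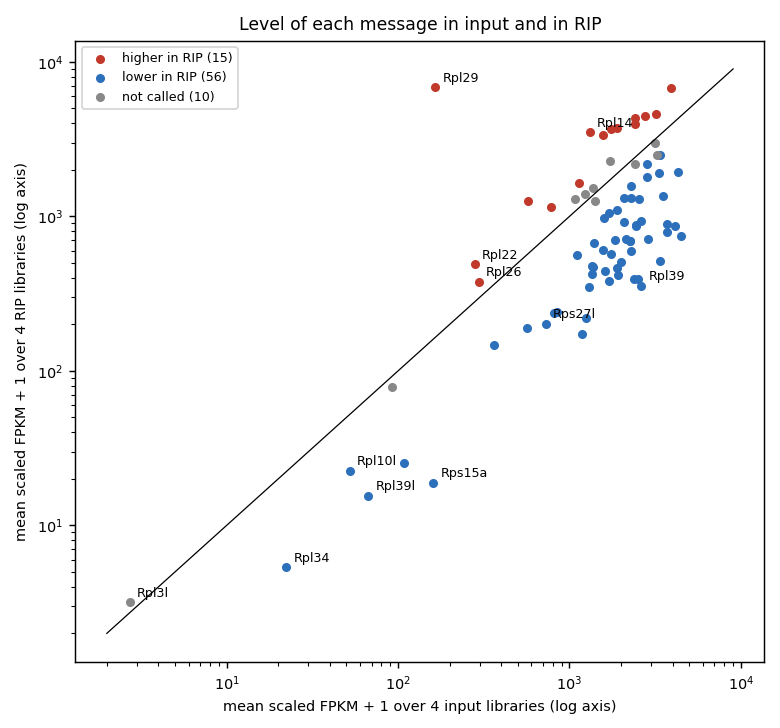
Mean scaled FPKM + 1 over the 4 input libraries (x axis, log) is plotted against that over the 4 RIP libraries (y axis, log) for the 81 tested genes, coloured by call, with the line of equal level. Rpl29 is the point far above the line, and 56 genes lie below it in blue.

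The other higher messages moved much less. Rpl14, of the large subunit (chromosome 9, 120480634 to 120483770), had scaled levels of 1445, 1292, 1312 and 1207 FPKM in input and 4102, 3654, 3433 and 2892 FPKM in RIP, in the order used for Rpl29. All 4 RIP values were above all 4 inputs, and the difference was 1.41 ± 0.11 (adjusted p 4.34e-05, limma). Rpl21 of the large subunit stood at 637, 600, 544 and 506 scaled FPKM in input and at 1448, 1251, 1094 and 1239 in RIP, without overlap (1.14 ± 0.10, adjusted p 8.04e-05, limma).

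Rps25, a small subunit protein known for its part in viral internal initiation, differed by 1.10 ± 0.10, and Rpl4, a core protein of the large subunit, by 1.07 ± 0.13. Smaller rises were called, among others, for Rps24 (0.98), Rpl35 (0.84), Rpl22 (0.80), Rpl23a (0.77), Rpl12 (0.68), Rpl31 (0.55), Rpl5 (0.54) and Rpl26 (0.36). Apart from Rpl29, these calls rest on the scaling. With FPKM as deposited, which shifts the median of all genes by -0.73, Rpl29 was the only one of the 15 still called higher, and Rpl35, Rpl22, Rpl12, Rpl5 and Rpl26 were among those below 0. The median of the set minus that of all genes was -1.25 in scaled values and -1.45 with FPKM as deposited. It was smaller in size with quantile normalization (-0.64) and with the length trend removed (-0.54).

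Of the 5 lowest messages, 4 belong to the small subunit. Rps15a (chromosome 7, 125247890 to 125259661) had scaled levels of 153, 138, 178 and 167 FPKM in input and 19.7, 13.1, 23.9 and 15.1 in RIP, a difference of -3.11 ± 0.12 (adjusted p 1.16e-05, limma). Rps13 (chromosome 7, 123475021 to 123477704) went from 1274, 1199, 1163 and 1108 scaled FPKM in input to 216, 166, 177 and 134 in RIP (-2.79 ± 0.11, adjusted p 1.18e-05, limma). In both genes all inputs were several times higher than all RIP values. Rpl39, which lines the exit tunnel (-2.88 ± 0.11), and the small subunit proteins Rps21 (-2.74 ± 0.17) and Rps29 (-2.71 ± 0.12) completed the lowest 5.

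**Figure D3:**
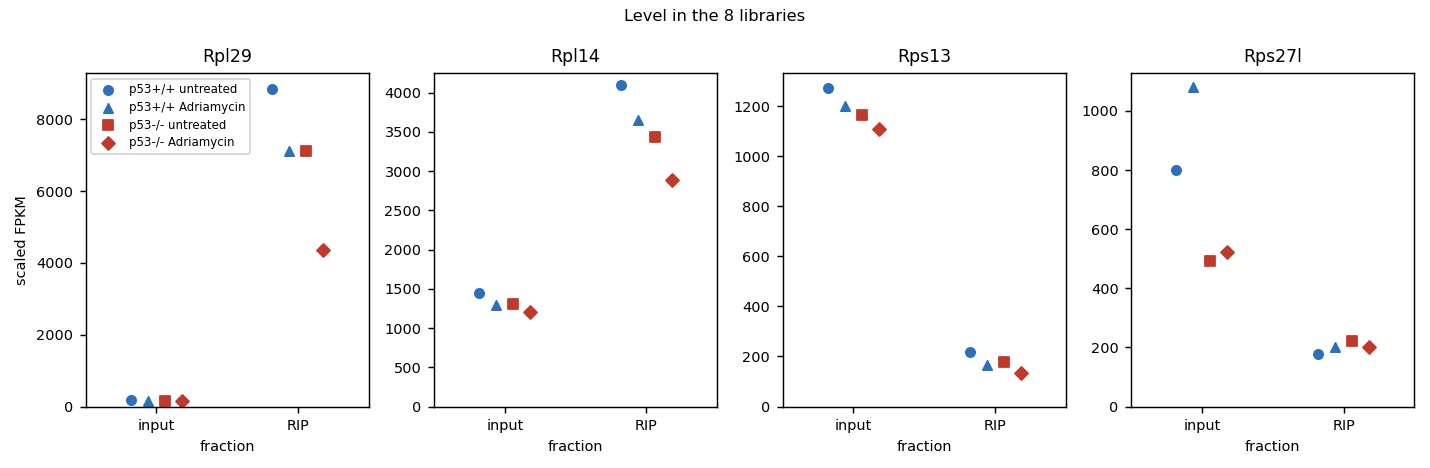
Scaled FPKM (y axis, from 0) in each of the 8 libraries for Rpl29, Rpl14, Rps13 and Rps27l; blue points are p53+/+ and red points p53-/-. Rpl29 and Rpl14 are higher in every RIP than in any input, Rps13 and Rps27l are lower. The inputs of Rps27l are 802 and 1082 in p53+/+ and 494 and 523 in p53-/-.

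All 3 acidic stalk messages, whose proteins recruit translation factors, were lower in RIP. Rplp1 fell the most, from 4190 to 4815 scaled FPKM in input to 441 to 981 in RIP, without overlap (-2.63 ± 0.18). Rplp0, the base of the stalk, differed by -1.94 ± 0.14 and Rplp2 by -0.81 ± 0.15. With the length trend removed Rplp2 was no longer called (-0.06, adjusted p 0.642, limma).

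Among 10 messages for proteins of the 5S particle or bound by Mdm2, 6 were lower, 3 were higher and 1 was not called. The partners of the 5S particle parted: Rpl5 was higher (though at -0.40 with FPKM as deposited), with scaled levels of 728 to 865 FPKM in input and 892 to 1259 in RIP (0.54 ± 0.12, adjusted p 0.00673, limma), and Rpl11 was lower, with 2006 to 2275 in input and 518 to 921 in RIP (-1.60 ± 0.13, adjusted p 5.92e-05, limma). Neither pair of ranges overlapped. Rps7 (-2.51), Rps3 (-1.81), Rps27l (-1.78), Rps14 (-1.71) and Rpl23 (-1.37) were lower, and Rps25 was higher. Rpl26 was higher by 0.36 ± 0.10 (adjusted p 0.0147, limma), but its groups overlapped, the call was lost without the untreated p53+/+ pair (0.29, adjusted p 0.0878) and without the block (0.36, adjusted p 0.598), and the summed level of Rpl26 and Gm15772 differed by 0.45 on average. Rps27 was not called (-0.75 ± 0.52, adjusted p 0.227, limma): its 4 pairs ran from 59.6 scaled FPKM in RIP against 112 in input to 172 against 77.2, 10.8 against 70.2 and 67.9 against 108. Without the Adriamycin p53+/+ pair it was called lower (-1.38, adjusted p 0.0162, limma). Rps27 summed with Rps27rt was lower in RIP in all 4 pairs, at -0.46, -0.96, -0.81 and -1.33.

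Of the 5 paralogs in the set, 4 were lower in RIP, each in the same direction as its parent where the parent was called. Rpl39l differed by -2.16 beside -2.88 for Rpl39, Rps4l by -1.35 beside -2.09 for the X-linked Rps4x, and Rpl10l by -1.22 beside -1.65 for Rpl10. Rpl3l and Rpl3 both failed the test (0.22 and 0.27). Outside the rule, Rpl22l1, the paralog of Rpl22, gave the opposite sign, at -1.5 ± 0.22 (adjusted p 0.000834, limma), while Rpl22 was at 0.80 ± 0.13 (adjusted p 0.00144, limma) and at -0.13 with FPKM as deposited. Rpl22 is covered by records of 2203 bases on average, and Rpl22l1 by 477 bases. Length went the other way for Rpl7l1, also outside the rule: at 2606 bases it differed by -1.31, beside -0.79 for Rpl7 at 934 bases. Rpl36al (517 bases, -0.16) was not called, beside -0.70 for Rpl36a (489 bases).

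Length was examined because longer messages were generally higher in RIP. Across all 11847 genes, Spearman's rho between log2 length and the RIP minus input difference was 0.40, and across the 81 ribosomal protein messages it was 0.22, as a description over genes that share the same 8 libraries and are not independent replicates. The ribosomal protein messages are short, with 76.5% under 1000 bases against 9.56% of all genes tested. Of the 81, 48 lay below the median of other genes in their own length class, a line that splits those other genes evenly by construction. By class this was 8 of 17 under 500 bases, 20 of 29 from 500 to under 750 and 10 of 16 from 750 to under 1000. It was 6 of 12 from 1000 to under 1500 bases, and 3 of 4, 0 of 2 and 1 of 1 in the longer classes. In the class from 500 to under 750 bases the 29 ribosomal protein messages had a median of -1.60 and the 362 other genes -0.73, and from 750 to under 1000 bases the medians were -1.20 (16 messages) and -0.83 (525 genes). Under 500 bases (-0.81 over 17 messages, -0.87 over 183 genes) and from 1000 to under 1500 bases (-0.43 over 12, -0.46 over 1363) they were nearly equal.

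The longest classes held few of these messages: of 4 from 1500 to under 2000 bases 3 were lower and 1, Rpl21, was higher, and both from 2000 to under 3000 bases, Rpl22 and Rpl5, were higher. The lengths of the messages higher in RIP ran from 452 to 2203 bases with a median of 740, and those of the lower messages from 324 to 5134 bases with a median of 691. Rpl29, at 710 bases, sat exactly at the median of the set, and of 391 genes from 500 to under 750 bases 1 was further up in RIP. Within 30 bases of its length were 7 other ribosomal protein messages, of which 5 were lower (among them Rps9 at -1.40 and Rpl9 at -1.23) and 2 were higher (among them Rps25 at 1.10). Input level was less related to the difference than length was, with rho of -0.09 for log2 mean input FPKM. For log2 length rho was 0.22, and 0.27 without Rps15a. When the length trend of each library was removed, the median of the set moved from -1.23 to -0.69, with 47 lower (43.3% of all genes) and 23 higher (30.4% of all genes). All 15 higher messages were among those 23.

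**Figure D4:**
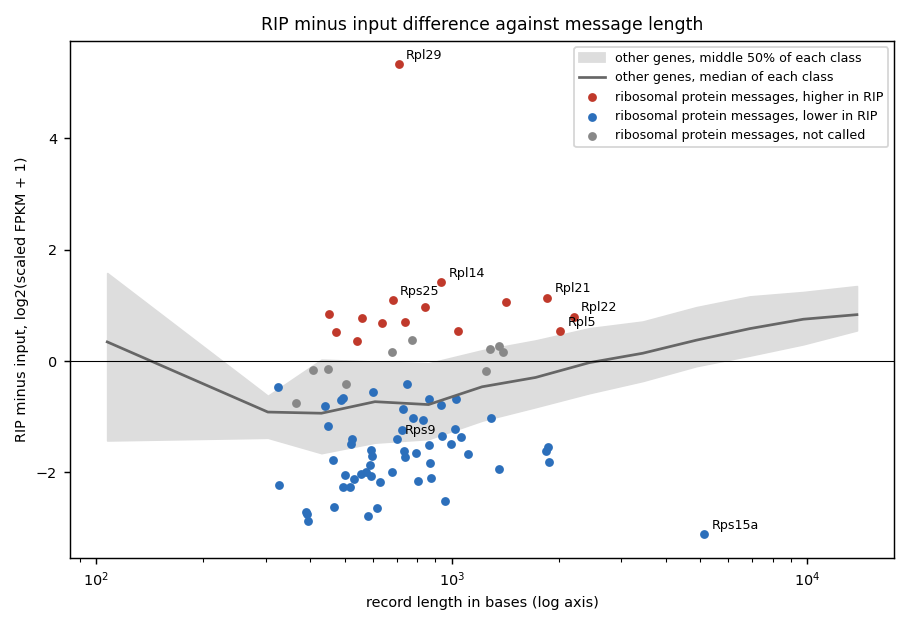
The RIP minus input difference (y axis, log2) is plotted against record length in bases (x axis, log). The grey line and band are the median and middle 50% of other genes in each length class, and points are the 81 ribosomal protein messages coloured by call. Messages of one length lie on both sides of the line, Rpl29 at 710 bases among them, and Rps15a is low at 5134 bases.

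Records of 1 gene could also part. Rpl38, of the large subunit, has records of 285, 352 and 369 bases. The 285-base record (chromosome 11, 114530095 to 114533645) made up 45.3% of the gene in input and 72.8% in RIP, with differences of 0.10 and -0.01 in the p53+/+ pairs and 0.44 and 0.39 in the p53-/- pairs. The 352-base record, which starts further upstream at 114529857, fell in all 4 pairs (-1.68, -2.12, -1.56 and -1.47). Records that overlap this much rest on the authors' division of shared reads. In Rps24 and Rpl31, the main records of each gene moved alike.

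What start sites share was read from RefSeq windows of 30 bases around annotated starts (GRCm38.p6), which 61 of the 82 genes have in the table used. The motif CTTTC, part of many TOP starts, was searched on both strands (as CTTTC or GAAAG). It was present in 18 of the 61 (29.5%) and in 8.83% of all 27025 genes in the table. By call it was found in 2 of 10 higher messages, in 13 of 44 lower messages and in 3 of 6 that were not called. Windows with the motif on both sides of the call, and without it, are shown 5′ to 3′ on the gene's strand, with the motif in capitals and the first transcribed base after the first 15 bases. Rps15a (chr7:118116133-118116162, minus strand), Rps10 (chr17:27635230-27635259, minus strand) and Rplp2 (chr7:141447636-141447665, plus strand) were lower in RIP, Rpl35 (chr2:39005117-39005146, minus strand) and Rpl12 (chr2:32961697-32961726, plus strand) were higher, and Rpl14 (chr9:120571502-120571531, plus strand) and Rps13 (chr7:116334176-116334205, minus strand) lack the motif.
Rps15a: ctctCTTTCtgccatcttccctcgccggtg
Rps10: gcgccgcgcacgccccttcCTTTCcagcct
Rplp2: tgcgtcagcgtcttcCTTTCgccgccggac
Rpl35: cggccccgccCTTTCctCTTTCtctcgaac
Rpl12: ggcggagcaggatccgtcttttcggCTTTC
Rpl14: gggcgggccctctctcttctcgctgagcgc
Rps13: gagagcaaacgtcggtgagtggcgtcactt
The table does not list Rpl29. A match is only a run of letters in this window.

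Messages of other ribosomal, translation and proteasome genes were set beside these. The shares over all genes tested, 37.2% lower and 38% higher in RIP, apply to each count below. Of 78 mitochondrial ribosomal protein genes, 60 were lower and 4 higher in RIP, with a median of -0.89, and of 38 tested proteasome subunit genes, 31 were lower and 4 higher, with a median of -1.02. Of 23 other TOP messages, 16 were lower and 4 higher (median -0.67), with Eif3k, an initiation factor subunit (-1.70), and Rack1, a scaffold on the small subunit (-1.66), lowest. Nap1l1, a histone chaperone (1.35), and Npm1, a nucleolar chaperone (1.05), were highest. The 36 ribosome assembly factors split into 13 lower and 16 higher (median 0.03), from Nop10, a part of pseudouridylating particles (-2.55), to Taf1d of the RNA polymerase I machinery (2.52).

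The second comparison asked what Adriamycin did to the ribosomal protein messages, with 1 library a side and hence no replicate check. In input their levels hardly moved. None of the 81 differed by 1 or more in either genotype, where 8.48% of all genes were higher and 3.96% lower by that much in p53+/+ input, and 0.143% and 0.169% in p53-/- input. The median difference was -0.06 in p53+/+ input (all genes -0.05) and -0.10 in p53-/- input, where 76 of 81 were below 0 (all genes 0.00). The 36 assembly factors had a median of -0.61 in p53+/+ input, where 6 were lower by 1 or more, and of -0.14 in p53-/- input, where none was. Among them was Nop56, a core protein of box C/D particles, with 255 FPKM untreated and 108 FPKM after the drug in p53+/+ input.

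The largest rise in p53+/+ input was that of Rps27l, a p53 target gene in the literature, at 0.43 (1061 to 1565 FPKM), against 0.08 in p53-/- input (659 to 733 FPKM). The largest falls there were those of Rpl26 (-0.93) and Rpl30 (-0.83), both overlapped by a near copy, and of the pseudogene Rps4l (-0.69), at -0.29, -0.13 and -0.16 in p53-/- input. Summed with their overlapping copies, Rpl26 came to -0.08 and Rpl30 to -0.07 in p53+/+ input.

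In the RIP libraries the ribosomal protein messages stood lower after Adriamycin. The median was -0.36 in p53+/+ RIP, with 76 of 81 below 0 (all genes -0.07), and -0.25 in p53-/- RIP, with 63 of 81 below 0 (all genes -0.03). Other sets fell as well in p53+/+ RIP: mitochondrial ribosomal protein genes (median -0.45), proteasome subunit genes (-0.57) and other TOP messages (-0.34). In p53-/- RIP these sets stood at -0.15, -0.08 and -0.28, and in p53+/+ input at -0.22, -0.45 and -0.21. Rpl26 (-1.28) and Rps4l (-1.03) were lower by 1 or more in p53+/+ RIP (5.41% of all genes) and Rps27 was higher by 1.51 (9.75% of all genes). In p53-/- RIP Rps27 was higher by 2.55 (0.203% of all genes) and none was lower by 1 or more (0.27%). Summed with the near copies that overlap them, the values in p53+/+ RIP were -0.39 for Rpl26 and -0.38 for Rps27, and in p53-/- RIP Rps27 came to -0.47, opposite in sign to the gene alone. With quantile normalization the p53+/+ RIP median was -0.021.

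The RIP/input ratio was tested between treatments over the 4 pairs. For 71 of 81 messages the ratio was lower after Adriamycin, with a median of -0.22 (all genes -0.02). By limma 0 of the 81 passed an adjusted p of 0.05 (0% of all genes lower and 0.00844% higher), and Rps15a (-0.47) and Rps19 (-0.58) had an unadjusted p under 0.05 (3.21% of all genes). Among the 56 messages lower in RIP, 54 had a lower ratio after Adriamycin (median -0.29), and among the 15 higher messages 8 had (median -0.06). Of all 11847 genes tested, 6322 had a lower ratio after Adriamycin. The calls come from the same 4 pairs, and the matching split of all genes by call was not made. Rpl29 was at -0.42, with 5.67 and 5.47 in the p53+/+ pairs and 5.40 and 4.78 in the p53-/- pairs, which do not overlap by genotype but do by treatment.

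The third comparison was between genotypes. In untreated input none of the 81 differed by 1 or more (3.11% of all genes were higher in p53-/- and 2.44% lower). In Adriamycin-treated input Rpl26 was higher by 1.53 (7.63% of all genes), and Rpl10l (-1.21) and Rps27l (-1.05) were lower (10.9% of all genes). Rpl26 summed with Gm15772 differed by 0.47. The medians were -0.09 and -0.14 (all genes -0.02 and 0.04). In a limma fit over the 4 inputs, added after the data were seen, 0 of 81 were called (0.0844% of all genes lower and 0.54% higher), and 19 had an unadjusted p under 0.05 (20.2% of all genes). With no term for treatment in that fit, the untreated and Adriamycin inputs of a genotype served as its replicates. The fibroblast markers given above differ between the same inputs by a median of 3.16 untreated and 2.89 with Adriamycin; their part in these differences was not tested.

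The direction of the genotype difference varied by chromosome, a split chosen after the values were seen. The 9 messages on chromosomes 8 and 11, among them Rpl13, Rpl19, Rpl23, Rpl27 and Rpl38, were all higher in p53-/- in both treatments, with medians of 0.44 untreated and 0.32 with Adriamycin. Of the other 72, 16 and 12 were above 0, with medians of -0.11 and -0.18. Rpl13, of the large subunit, had 2814 and 3268 FPKM in the p53+/+ inputs and 4057 and 3879 in the p53-/- inputs, without overlap.

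Other genes of these chromosomes lay higher as well: the median of 655 genes on chromosome 8 was 0.34 untreated and 0.29 with Adriamycin, and that of 1032 genes on chromosome 11 was 0.26 and 0.31. On chromosome 1 all 3 messages were lower in both, with other genes at -0.21 and -0.14. The 4 messages on the X chromosome were lower at both treatments (medians -0.23 and -0.25) while other genes there were at 0.07 and 0.38. Copy number of these chromosomes was not measured. In RIP, 8 of the 9 messages on chromosomes 8 and 11 were above 0 at each treatment, with medians of 0.62 and 0.89.

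**Figure D5:**
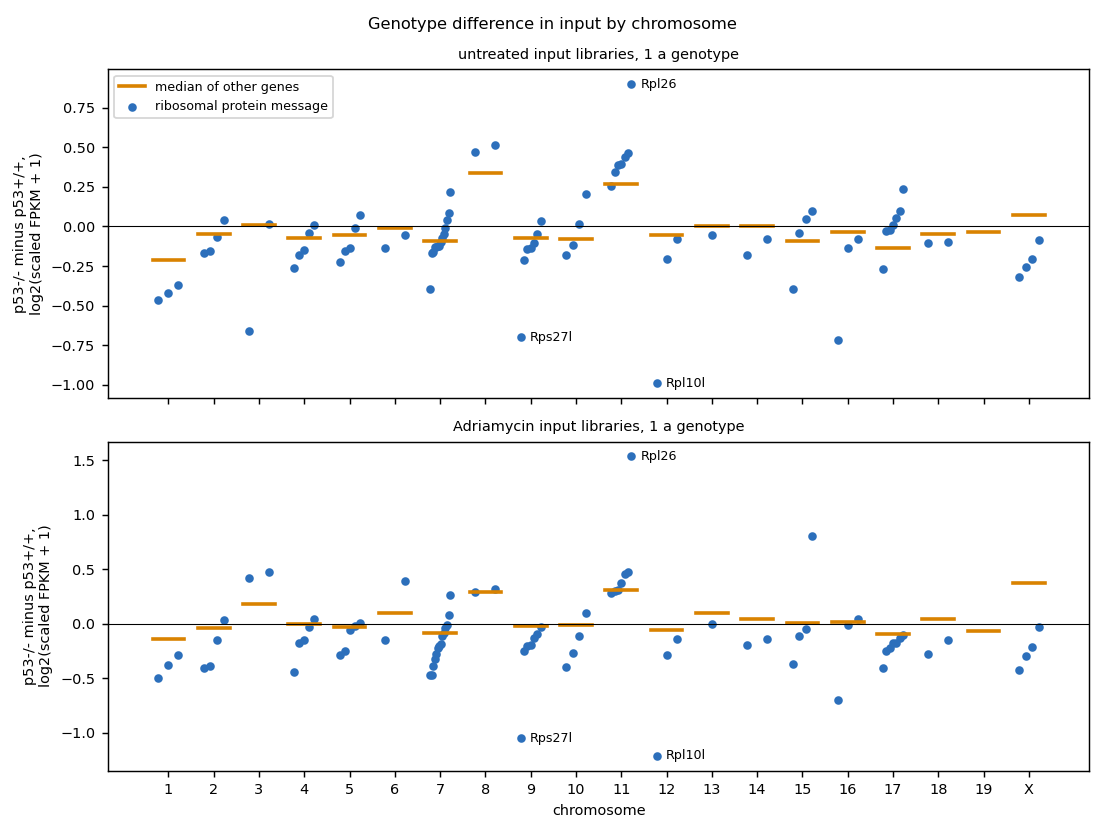
The p53-/- minus p53+/+ difference in input on the log2(scaled FPKM + 1) scale (y axis) is plotted by chromosome (x axis), untreated above and Adriamycin below, each from 1 library a genotype. Points are ribosomal protein messages and orange bars are medians of all other tested genes on that chromosome. On chromosomes 8 and 11 all 9 points are above 0 in both panels, and so are the bars.

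In RIP the genotype differences spread more. With Adriamycin 4 messages were higher in p53-/- by 1 or more (8.8% of all genes), Rpl26 (1.68), Rpl27 (1.22), Rps26 (1.13) and Rps27a (1.01), and 2 were lower (14.7%), Rps27 (-1.33) and Rpl10l (-1.04). In untreated RIP 0 were higher (3.93%), and Rps27 (-2.36) and Rpl39l (-1.02) were lower (5.44%). Summed with their near copies, Rpl26 came to 0.90 with Adriamycin, and Rps27 to -0.51 untreated and -0.60 with Adriamycin. The genotype medians in RIP follow the scaling: they were -0.13 untreated and 0.03 with Adriamycin, and 0.48 and 0.83 with FPKM as deposited.

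The RIP/input ratio between genotypes passed the test for 1 message, Rps27l, the paralog of Rps27 (chromosome 9, 66793925 to 66797316). Its scaled input level was 802 and 1082 FPKM in p53+/+ and 494 and 523 in p53-/-, and its scaled RIP level was 179 and 200 in p53+/+ and 221 and 201 in p53-/- (untreated and Adriamycin). The inputs separated by genotype, whereas the scaled RIP values were close together. As deposited, the RIP values also separated, with 106 and 107 FPKM in p53+/+ and 199 and 190 FPKM in p53-/-. The RIP minus input difference was -2.16 and -2.43 in p53+/+ and -1.15 and -1.37 in p53-/-, a gap of 1.03 ± 0.20 (adjusted p 0.0477, limma with 2 residual degrees of freedom), next to 0.853% of all genes higher and 2.41% lower. No message was called with a pseudocount of 5, without a filter on low values, under quantile normalization, or when any pair other than the untreated p53+/+ pair was left out. Without that pair 2 messages were called, and with FPKM as deposited 23. In all, 8 messages had an unadjusted p under 0.05 (20.2% of all genes, in either direction), all with a higher ratio in p53-/-, and the median of the 81 was 0.09.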

How the data were processed

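FPKM and their bounds were estimated per transcript by the authors, 1 table a library, and deposited without pooling. The authors' coverage column, the mean read depth over a transcript, was used only to estimate depth. The submitters' processing notes name CASAVA 1.8.2, TopHat, TopHat2 2.0.8, Cufflinks and build mm9, with no settings or roles. No read counts were used, so intervals from counting error could not be given.

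Here FPKM were summed per gene and scaled by median ratios over genes averaging at least 1 FPKM and above 0 in all 8 libraries (factors 1.32 to 1.45 in inputs, 0.532 to 0.945 in RIP). Genes with a scaled mean of 1 or more were tested on log2(scaled FPKM + 1), which understates changes of low genes. Tests used limma 3.58.1 in R 4.3.3 with a mean-variance trend and Benjamini-Hochberg adjustment over all 11847 genes. RIP was compared with input, 4 against 4, with the combination of genotype and treatment as a block (3 residual degrees of freedom). Pairing comes from the labels, which give 1 input and 1 RIP library for each combination and carry no replicate numbers. The RIP/input ratio was tested over the 4 differences (2 residual degrees of freedom). Its genotype test took both treatments together and its treatment test both genotypes, so a response to the other factor counts as spread. Adriamycin and genotype were compared with 1 library a side, without a test. Tables were handled in Python 3.11.15 with pandas 2.3.3 and numpy 2.4.6, and the fits were checked on simulated data with a preset spread. There the RIP against input test recovered 100% of genes changed by 1 on the log2 scale. The genotype ratio test recovered 29% of genes changed by 1 and 97% of those changed by 2. Few calls in that ratio test therefore do not show that smaller changes are absent.

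Named were the 5 highest and 5 lowest RIP minus input differences, up to 8 called higher in RIP, messages past 1 on the log2 scale in the other contrasts, those called in ratio tests, the lists of stalk, Mdm2-binding and paralog genes, the 3 highest and 3 lowest input levels, genes whose records differ, and up to 4 of each other list. Other genes named were added after their values were seen. Values of some single genes are not reported here. Members and lists were chosen with earlier results of these data known. Alternatives were other pseudocounts, filters and scalings, removal of the length trend, no block, and leaving out each pair.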

Additional observations from a re-analysis of the deposited data

Results flagged for a closer look

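The RIP minus input difference of Rps27l stood out because it differed between genotypes by 1.03 on the log2 scale (1.0288 unrounded). It was less negative in p53-/- in both treatments. The gap of Rps27 was larger and opposite in sign (-1.75), but was not called, with pairs that scatter widely and a near copy over its locus. The gap of Rps27l came with lower input levels in p53-/- and near-equal RIP levels after scaling, while the deposited RIP levels were 106 and 107 FPKM in p53+/+ and 199 and 190 FPKM in p53-/-. Over the 4 inputs alone, Rps27l was lower in p53-/- by a log2 difference of -0.87, which did not pass the adjusted threshold (adjusted p 0.156, limma). That fit has no term for treatment, so the Adriamycin rise of Rps27l in p53+/+ input counts there as spread. Among the 81 messages, no pair stood apart from the other 3 by Dixon's criterion for 4 values, which chance would meet in about 1 of 20 groups.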

How the results depend on the processing

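With FPKM as deposited, the median RIP minus input difference was -2.16 and 1 message was called higher. Among the named messages, values fell below 0 for Rpl35 (-0.095), Rpl22 (-0.13), Rpl12 (-0.25), Rpl3l (-0.38), Rpl5 (-0.40) and Rpl26 (-0.58). The genotype median was then 0.83 for the ratio, 0.48 in untreated RIP and 0.83 in Adriamycin RIP. Quantile normalization gave a median of -0.77, put Rpl3l at -0.026 and the p53+/+ RIP median after Adriamycin at -0.021. Removing the length trend gave -0.69 and 23 messages called higher. For the genotype ratio, where 1 message was called, 23 were called with FPKM as deposited, and 0 with a pseudocount of 5, without a filter, with quantile normalization and with median ratios over all genes above 0, the last chosen after seeing the data. Leaving out 1 pair gave 0 to 2 there, and for RIP against input 53 to 57 lower and 14 to 16 higher. Without the block for the combination of genotype and treatment 54 were lower and 14 higher, and Rpl26 was not called (0.36, adjusted p 0.598, limma). The causes of these shifts were not tested. Depth in RIP was lower than in input, and FPKM alone give no counting error.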
